A study of Mus musculus with 2 samples.

Results

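Type I interferon-stimulated genes were described in the immune cells of 2 mouse squamous cell carcinomas, by cell class and by tumour. The set was a list of 39 gene symbols, and 38 of them had a row among the 31055 genes of the count matrices. Mx2 was not analysed here. The genes were taken by symbol, with no threshold on a measured value.

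The study relates cancer cell heterogeneity to where immune cells sit in a tumour. A joint injection of 2 squamous carcinoma lines, YFP-marked CIT6 and RFP-marked CIT9, under the skin of FVB mice gave mosaic tumours. In tissue slices the YFP+, RFP+ and mixed regions received oligonucleotide codes by patterned light (ZipSeq), and after collagenase digestion CD45+ cells, the leukocytes, were sorted and sequenced with the 10x Genomics 3' v3 chemistry. Both samples were untreated and belong to 1 group, here called replicate 1 and replicate 3 as in the labels, so these data hold no comparison with a treated or interferon-free tumour. Xist stood at 579 CPM (unique molecular identifiers, UMIs, of a gene scaled to a total of 1000000 in its class) in macrophage-like cells of replicate 1 against 0.171 in replicate 3, and the Y-linked Ddx3y at 0.0495 against 58.8, so the samples came from animals of different sex, and sex and tumour cannot be told apart. A p-value here sets a difference between groups of cells against how far such differences varied between these 2 samples, with the tumour as a block. That variation was estimated over all groups in a fit and shared across genes. It rests on these 2 samples only.

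Replicate 1 gave 4818 cells with a median of 16798 UMIs, and replicate 3 gave 6734 cells with a median of 21345.5. Only 9 barcodes were shared by both. Cells were placed in a class where enough of its marker genes were detected, and each class is named "-like" because the names were rebuilt here. There were 3035 and 3754 macrophage-like cells (replicate 1 first here and below), 79 and 266 monocyte-like, 403 and 38 neutrophil-like, 63 and 104 conventional dendritic cell (DC)-like, 11 and 158 plasmacytoid DC-like, 427 and 840 T-like, and 102 and 213 NK-like cells. A further 24 and 39 cells that passed the CD45 sort carried fibroblast or tumour markers. Levels are CPM, and their intervals cover counting error only. A UMI marks the 3' end of a transcript, so levels were not divided by gene length.

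Type I interferons are cytokines that bind the receptor pair Ifnar1 and Ifnar2, activate the kinases Jak1 and Tyk2, and through them a complex that holds Stat2 and Irf9. This complex binds a short DNA element, the interferon-stimulated response element, beside its target genes. The targets encode antiviral effectors, sensors of foreign nucleic acid, and regulators such as Irf7 and Usp18 that strengthen or damp the response. In tumours these genes are known as a readout of interferon made locally, and some of them also have levels typical of a cell type.

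The genes lie on many chromosomes, in several clusters (mm10 coordinates). Ifit2, Ifit3, Ifit3b and Ifit1 lie side by side on chromosome 19 between positions 34550694 and 34650009. Oasl2 and Oasl1 are neighbours on chromosome 5, as are Oas2, Oas3, Oas1g and Oas1a farther along it, while Ifi209, Ifi204 and Ifi205 lie on chromosome 1. Rsad2 and Cmpk2 are adjacent on chromosome 12. Near-identical copies make some counts uncertain: of the 90-base windows in the last 400 bases of its transcripts, Ifi205 shared 73.0% with Ifi211, Ifi209 57.6% with Ifi214, Oas1a 23.8% with Oas1g, Phf11b 23.8% with Phf11c and Ifit3 8.68% with Ifit3b. Phf11d shared 11.3% with copies of its family, and no window of the other members was shared.

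The response element shows in the promoters. RefSeq start sites (GRCm38.p6) were given for 29 of the 38 genes, and the 300 bases around each start were searched on both strands for GAAANNGAAA, a core of the element. It was found in 17 of 29 (58.6%), against 3.99% of 27025 genes, and 9 of the 29 held at least 2 matches, against 0.266% of genes. The palindromic motif TTCNNNGAA was in 6 of 29 (20.7%), against 9.55% of genes. Matches may overlap one another, and a match is a description of the letters only. The stretches below are examples from the genes with a match. Genes without a match, such as Irf7 and Oasl1, also differ between cell classes or single cells in the results. The stretches read 5' to 3' on the strand of the gene, and capitals mark the letters of the first motif on either strand. Isg15 is at chr4:156200855-156200916 (minus strand), Ifit1 at chr19:34640765-34640833 (plus), Ifit3 at chr19:34583353-34583436 (plus), Ifit3b at chr19:34607749-34607832 (plus), Bst2 at chr8:71537567-71537622 (minus) and Rsad2 at chr12:26456543-26456592 (minus).
Isg15: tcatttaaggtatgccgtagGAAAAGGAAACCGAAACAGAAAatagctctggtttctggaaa
Ifit1: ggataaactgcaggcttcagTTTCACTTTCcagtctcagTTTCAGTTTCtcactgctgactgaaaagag
Ifit3: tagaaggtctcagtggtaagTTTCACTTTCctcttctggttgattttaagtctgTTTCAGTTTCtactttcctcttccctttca
Ifit3b: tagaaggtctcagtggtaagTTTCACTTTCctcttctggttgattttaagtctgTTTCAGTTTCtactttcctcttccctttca
Bst2: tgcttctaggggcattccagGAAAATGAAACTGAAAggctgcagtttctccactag
Rsad2: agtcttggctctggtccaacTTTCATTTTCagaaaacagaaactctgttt

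Isg15, a ubiquitin-like modifier, carried 3 overlapping matches, the first beginning at -78 and the last at -66 from its start. Ifit3 and its copy Ifit3b were identical over 84 of 84 bases of the stretch. Bst2 (tetherin), which holds virus particles at the cell surface, carried 2 matches, and Rsad2 (viperin), an antiviral enzyme, carried 1.

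Summed over the 38 genes, levels were highest in monocyte-like cells and lowest in NK-like cells of the 8 classes, in both tumours. The monocyte markers included Ly6c2 and Plac8, which are known to respond to interferon, so that gate is not independent of interferon exposure. The sum was 4521 CPM (95% Poisson interval 4376 to 4670) in monocyte-like cells of replicate 1 and 6312 (6226 to 6398) in replicate 3. In macrophage-like cells it was 1708 and 2508 CPM, in neutrophil-like cells 2717 and 3534, and in conventional DC-like cells 1993 and 2911. Plasmacytoid DC-like cells stood at 3062 and 5713 CPM, T-like cells at 1557 and 2194, NK-like cells at 762 and 1045, and fibroblast or tumour-like cells at 2298 and 3921. By CPM the sum was higher in replicate 3 in each of these 8 classes. In neutrophil-like cells the median over all genes compared was also higher in replicate 3, by 0.55 on the log2 scale. The order of the tumours in that class thus depends on the scaling.

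A few genes made most of each sum, and not the same ones. Bst2 alone held 65.2% and 81.2% of the member UMIs of plasmacytoid DC-like cells, and Ifitm3 held 87.9% and 73.3% of those of fibroblast or tumour-like cells and 53.9% and 43.3% of those of monocyte-like cells. In T-like cells Ifi27l2a led, with 53.3% and 50.1%. With Ifitm3 and Bst2 set aside, plasmacytoid DC-like cells stood at 1035 and 1009 CPM, close to macrophage-like cells of replicate 1 (1022) and below those of replicate 3 (1541), while monocyte-like cells stayed at 2021 and 3384.

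**Figure D1:**
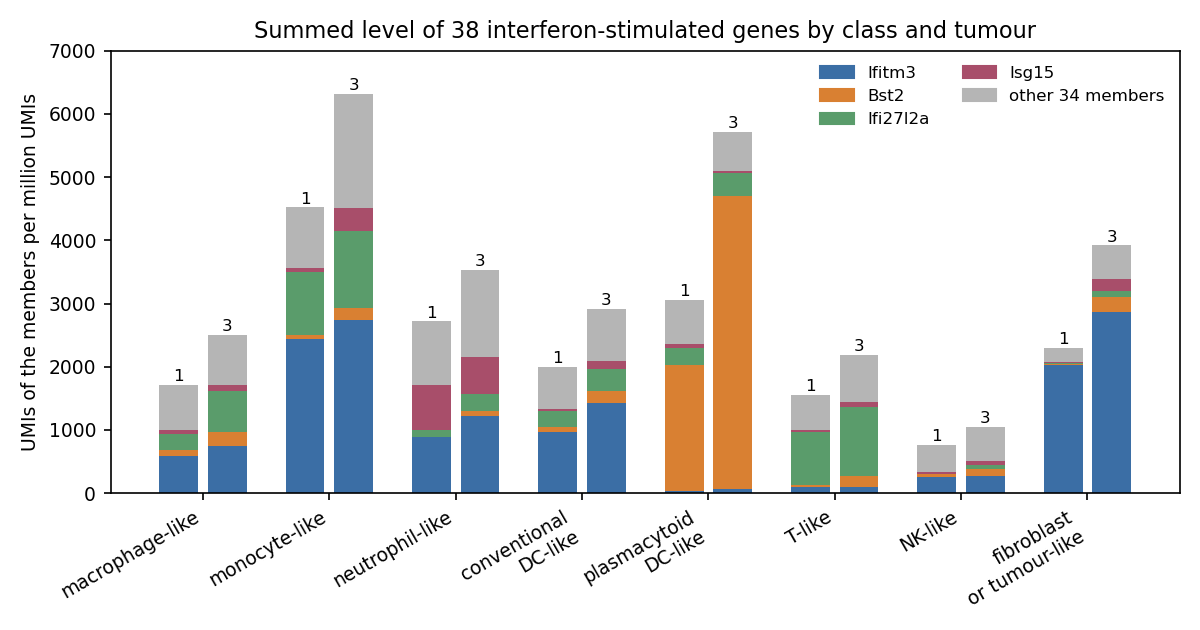
Bars give the summed level of the 38 genes in CPM for 8 cell classes, with the left bar for replicate 1 and the right bar for replicate 3, and colours for Ifitm3, Bst2, Ifi27l2a, Isg15 and the other 34 genes. Monocyte-like cells reach 4521 and 6312, and Bst2 makes most of the plasmacytoid DC-like bars.

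Among the effectors at the membrane, Ifitm3, which blocks the entry of viruses into cells, was the most abundant. It stood at 2437 and 2733 CPM in monocyte-like cells, 975.2 and 1420 in conventional DC-like, 882 and 1214 in neutrophil-like and 595 and 747 in macrophage-like cells. It was at 255 and 271 CPM in NK-like, 91.4 and 102 in T-like and 29.6 and 65.9 in plasmacytoid DC-like cells. Fibroblast or tumour-like cells had 2021 and 2874 CPM. By CPM Ifitm3 was higher in replicate 3 in each of the 8 classes, though its order in neutrophil-like cells also depends on the scaling. Bst2 was at 1997 and 4638 CPM in plasmacytoid DC-like cells, against 90.9 and 221 in macrophage-like, 74.9 and 203 in conventional DC-like, 63.0 and 195 in monocyte-like, 52.2 and 119 in NK-like and 38.7 and 161 in T-like cells. Bst2 was higher in replicate 3 in each of these 6 classes. Ifi27l2a, a small interferon-induced protein of the nuclear envelope and mitochondria, was at 991 and 1227 CPM in monocyte-like and 830 and 1099 in T-like cells, against 243 and 656 in macrophage-like cells. NK-like cells had 1.45 CPM in replicate 1 (2 UMIs) and 49.1 in replicate 3. In barcodes of 10 to 100 UMIs, which stand for free RNA here, Ifi27l2a stood at 414 and 655 CPM, far above the NK-like cells. Among T-like cells its level was highest in regulatory T-like cells in both tumours, at 1123 and 1922 CPM, against 256 and 603 in CD8 T-like cells.

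The Ifit genes and Isg15, which are among the strongest responders to interferon, were led by different classes. The 4 Ifit genes summed to 56.4 and 40.4 CPM in macrophage-like, 21.0 and 80.5 in monocyte-like, 47.5 and 32.8 in neutrophil-like, 41.0 and 48.2 in conventional DC-like, 22.6 and 40.4 in T-like and 9.43 and 17.5 in NK-like cells. They were at 66.6 and 7.28 CPM in plasmacytoid DC-like cells (9 and 17 UMIs) and 0.862 and 50.2 in fibroblast or tumour-like cells (1 and 107 UMIs). The order of the classes differed between the tumours: monocyte-like cells were below macrophage-like cells in replicate 1 and above them in replicate 3. Isg15 was highest in neutrophil-like cells, at 716 CPM (668 to 768) and 590 (462 to 743). It stood at 74.1 CPM (56.5 to 95.4) in monocyte-like cells of replicate 1 and 356 (336 to 377) in those of replicate 3, and at 76.2 and 87.7 in macrophage-like cells. Rsad2 was also highest in neutrophil-like cells, at 283 CPM (253 to 316) and 90.2 (45.0 to 161), with 36.1 and 7.77 in macrophage-like and 8.64 and 48.5 in monocyte-like cells. The neutrophil-like values of replicate 3 rest on 38 cells with 72 UMIs of Isg15 and 11 of Rsad2. Isg20, an exonuclease that degrades RNA, stood at 125 and 123 CPM in neutrophil-like, 57.0 and 70.5 in T-like and 47.9 and 49.8 in NK-like cells, against 7.17 and 7.56 in macrophage-like cells.

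The OAS genes, most of which encode enzymes that sense double-stranded RNA and trigger RNA decay, were lowest in plasmacytoid DC-like cells of replicate 3. The 6 genes summed to 159 and 197 CPM in neutrophil-like, 86.4 and 173 in monocyte-like, 90.9 and 91.6 in macrophage-like, 47.4 and 56.6 in conventional DC-like, 29.2 and 33.9 in T-like and 13.8 and 22.2 in NK-like cells. Plasmacytoid DC-like cells had 0 UMIs in replicate 1, which allows, taken as 3 UMIs, up to 22.2 CPM, and 8.56 CPM in replicate 3. The myeloid classes other than plasmacytoid DC-like cells lay above both lymphoid classes in either tumour.

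Single OAS genes followed the same order only in part. Oas1a was highest in macrophage-like cells of replicate 1, at 40.6 CPM, and monocyte-like cells of replicate 3, at 47.3. Oasl2 was highest in neutrophil-like cells of both tumours, at 102 and 139 CPM (114 and 17 UMIs), with 34.6 and 70.1 in monocyte-like and 25.5 and 29.2 in macrophage-like cells. Oas3 stood at 16.1 and 41.0 CPM in neutrophil-like and 6.17 and 6.68 in macrophage-like cells. Oas1g, Oas2 and Oasl1 were at 9.78 CPM or less in macrophage-like cells of both tumours.

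The less abundant effectors were led by various classes. Trim30a was at 121 and 295 CPM in neutrophil-like, 141 and 105 in plasmacytoid DC-like and 55.1 and 57.7 in macrophage-like cells. Rtp4 was at 43.9 and 131 CPM in neutrophil-like, 35.8 and 73.2 in monocyte-like and 5.12 and 17.2 in conventional DC-like cells. Phf11b was at 56.3 and 78.2 CPM in conventional DC-like, 42.7 and 76.9 in T-like and 22.6 and 41.9 in macrophage-like cells. Neutrophil-like cells led in Rtp4 and conventional DC-like cells in Phf11b, in both tumours. Parp14 stood between 18.1 and 64.3 CPM in all 7 immune classes of both tumours, and Xaf1 between 7.17 and 61.9. Mx1 was at 4.94 and 38.1 CPM in monocyte-like, 16.01 and 13.9 in conventional DC-like and 11.4 and 9.25 in macrophage-like cells. Cmpk2, the enzyme encoded beside Rsad2, and Ifi44 were among the least abundant, at 5.41 and 3.70 and at 1.55 and 3.20 CPM in macrophage-like cells. Of the Isg15 group, the ligase Herc6 was at 26.8 and 30.2 CPM in NK-like and 21.3 and 28.3 in T-like cells, against 13.5 and 13.96 in macrophage-like cells, and Usp18 at 19.8 and 18.3 in conventional DC-like against 11.9 and 12.7 in macrophage-like cells.

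The 8 sensors of nucleic acid summed to 421 and 739 CPM in monocyte-like cells, the highest of the 7 immune classes in both tumours, and to 207 and 272 in macrophage-like cells. Zbp1, a sensor of left-handed nucleic acid, was at 97.5 and 251 CPM in monocyte-like and 28.5 and 75.3 in macrophage-like cells, with 1 and 3 UMIs in neutrophil-like cells. Ifi205, of the family of cytosolic DNA sensors, was at 47.4 and 57.3 CPM in conventional DC-like cells and at most 7.01 in the other immune classes. Within them it stood at 152 CPM (115 to 196) and 112 (92.8 to 135) in cDC1-like cells, and at 13.6 (7.76 to 22.0) and 24.1 (17.3 to 32.6) in cDC2-like cells. Of the RNA helicases, Ddx58 (RIG-I) was at 35.8 and 37.8 CPM in monocyte-like and 43.5 and 33.4 in NK-like cells, against 18.1 and 20.8 in macrophage-like cells. The transcription factor Irf7, which amplifies interferon production, was at 96.1 and 130 CPM in plasmacytoid DC-like and 87.7 and 134 in monocyte-like cells, against 46.4 and 70.4 in macrophage-like cells. Irf9 and Stat2, subunits of the response complex, were also detected in each class, with Irf9 between 18.9 and 82.0 CPM and Stat2 between 4.73 and 44.4 over the 7 immune classes of both tumours.

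**Figure D2:**
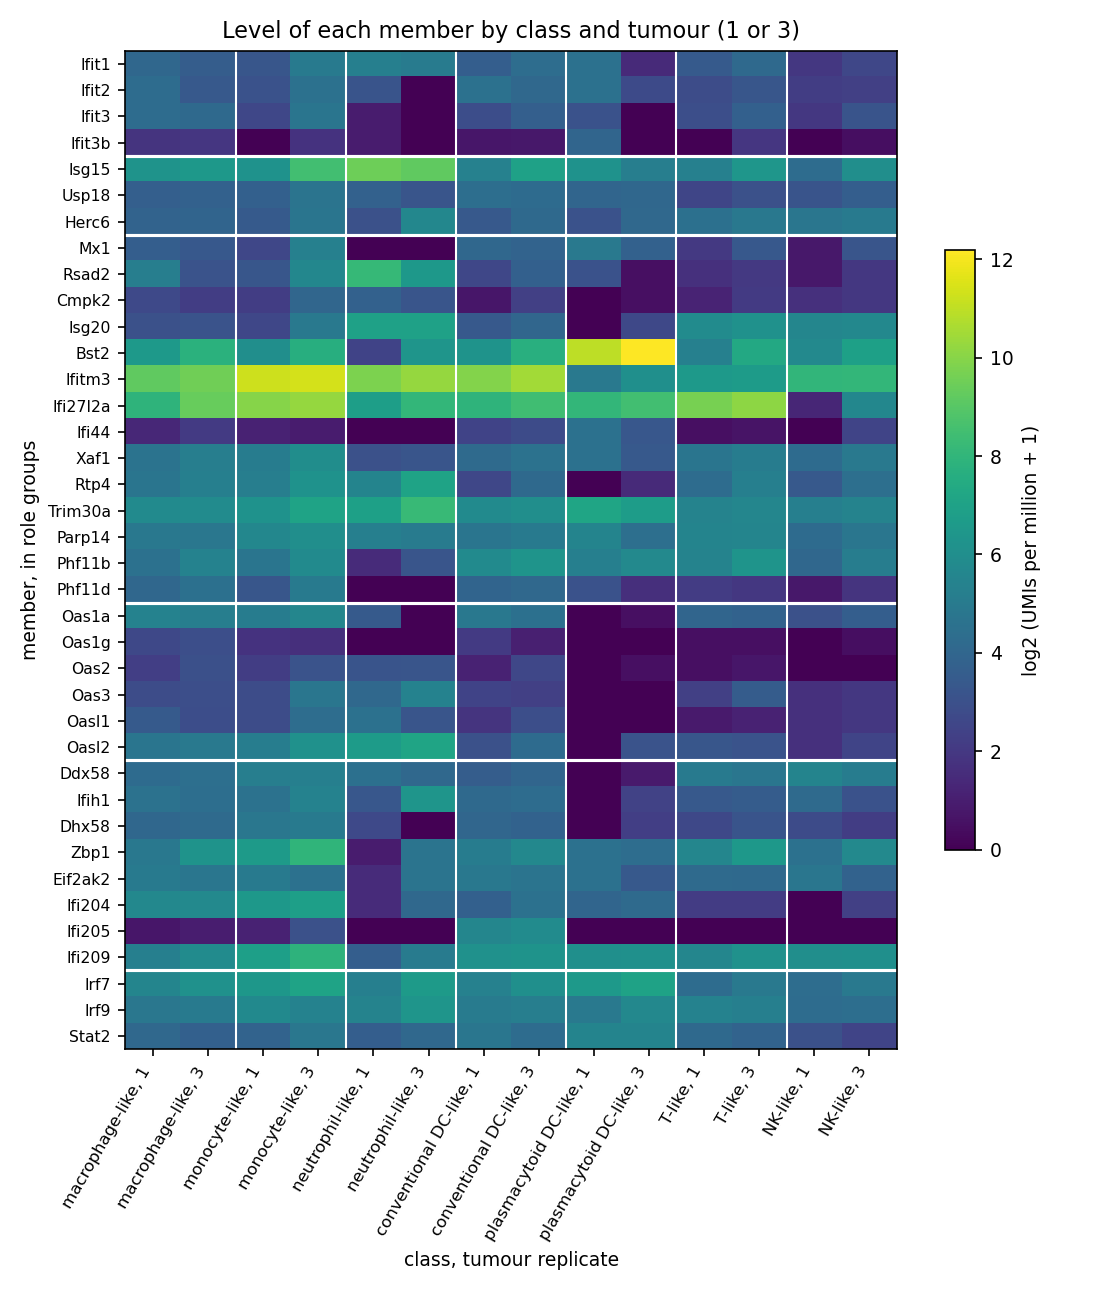
Colour gives log2 (CPM + 1) of each of the 38 genes (rows, in groups by role) in 7 classes of each tumour (columns; 1 and 3 name the replicate). Bright cells pick out Ifitm3 in monocyte-like cells (2437 and 2733 CPM), Bst2 in plasmacytoid DC-like cells (1997 and 4638 CPM) and Isg15 in neutrophil-like cells (716 and 590 CPM).

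Monocyte-like cells, the recruited precursors of many tissue macrophages, were set against macrophage-like cells. Ifitm3 and 5 of the sensors were higher in monocyte-like cells, and no member passed as lower. Of 37 members tested, 11 were higher, against 6.89% of the 11503 genes tested, and 0 lower, against 9.94% of genes (edgeR's quasi-likelihood test with the tumour as a block, Benjamini-Hochberg adjusted over all genes at 0.05; 1 member was lower at an unadjusted p under 0.05, and for DESeq2 these counts were 9 and 0). The median log2 fold change was 0.77 over the members and -0.14 over all genes. By role, 5 of 8 sensors and 6 of 14 GTPases and other effectors passed, and 0 of 3 Ifit genes, 0 of 6 OAS genes, 0 of 3 in the Isg15 group and 0 of 3 signalling genes. At an unadjusted p under 0.05, 2 OAS and 3 signalling genes were higher and 1 OAS gene was lower, with 0 in the Ifit and Isg15 groups.

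Ifitm3 differed by 1.89 ± 0.267 on the log2 scale (SE; adjusted p = 0.000489 in edgeR's quasi-likelihood test), with 1.90 in replicate 1 and 1.88 in replicate 3. Zbp1 was at 1.72 ± 0.225 (adjusted p = 0.000281), and the DNA sensor Ifi209 at 1.80 ± 0.282 (adjusted p = 0.00095). These rises were of like size in both tumours. Ifi205 was at 2.52 ± 0.482, from 1 and 23 UMIs in monocyte-like cells, with 0.60 in replicate 1 and 2.66 in replicate 3. Smaller rises passed for the antiviral ADP-ribosyltransferase Parp14 (1.01), the DNA sensor Ifi204 (0.91), Ddx58 (0.88), Trim30a, a regulator of inflammatory signalling (0.83), the chaperone Rtp4 (0.71) and the apoptosis factor Xaf1 (0.63). Isg20 passed at 1.46 ± 0.404, but it was at -0.66 in replicate 1 and 1.95 in replicate 3. Isg15 (0.99 ± 0.685), Ifi27l2a (1.45 ± 0.683) and Rsad2 (0.97 ± 0.759, with -2.18 and 2.63 in the tumours) did not pass. Isg15 and Rsad2 were below the macrophage-like level in replicate 1 and above it in replicate 3.

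Summed macrophage markers stood at 4644 and 3165 CPM in monocyte-like cells, with all 9 detected, against 47177 and 33358 in macrophage-like cells, and their part in these differences was not tested. The part of the interferon-responsive markers Ly6c2 and Plac8, through which the monocyte-like cells were gated, was not tested either. With 2 times the marker minimum in the gates 22 of 36 members were higher, without the tumour block 3 of 37 were, and after a 10% free RNA subtraction 4 of 37.

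Neutrophil-like and monocyte-like cells, both recruited from blood, differed in both directions. Of 37 members, 7 were higher in neutrophil-like cells, against 13.3% of genes, and 10 lower, against 18.3% of genes, by the same edgeR test. The median log2 fold change was -0.29, and -0.38 over all genes. Of the 8 sensors 0 were higher and 4 lower (0 higher also at an unadjusted p under 0.05), and of the 14 effectors 4 were higher and 6 lower.

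Higher in neutrophil-like cells were Isg20 by 3.28 ± 0.446 (adjusted p = 0.000184 in edgeR's test; 5.58 and 1.99 in the tumours), Rsad2 by 3.03 ± 0.819 (5.98 and 0.81) and Isg15 by 2.78 ± 0.732 (4.24 and 0.65). All of these were larger in replicate 1, where monocyte-like cells had less of them than in replicate 3. By CPM, neutrophil-like cells also had more Rsad2 and Isg15 in replicate 1, and about as much Isg20. The TMM scaling factor of neutrophil-like cells was 0.60 in replicate 1 and 1.10 in replicate 3. The lower factor raises all their scaled levels in replicate 1, and the part of each was not tested. Oasl2, an OAS-like protein, rose by 1.81, Trim30a by 1.29, Rtp4 by 1.02 and the signalling factor Irf9 by 0.82. Lower were Zbp1 at -4.50 ± 0.490 (adjusted p = 3.93e-05), Ifi204 at -4.05, Ifi209 at -2.70, Ifi27l2a at -2.16, Bst2 at -1.99, the helicase Dhx58 at -1.78, Xaf1 at -1.77 and Ifitm3 at -0.82. Zbp1 and Ifi204 rest on 4 UMIs each in neutrophil-like cells and Dhx58 on 6. Phf11b also passed as lower, with 3 UMIs. Phf11d had 0 UMIs in neutrophil-like cells of both tumours, which is at least 10.99-fold lower than in monocyte-like cells against a floor of 3 UMIs over the class. Mx1, a GTPase that blocks viral replication, also had 0 UMIs, at least 13.01-fold lower by the same floor, but did not pass (adjusted p = 0.0518 in edgeR's test). Ifit1 (1.63 ± 0.730), Irf7 (-0.29 ± 0.504) and Ifih1 (-0.12 ± 0.654) did not pass either.

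Neutrophil-like cells had medians of 2510 and 2636 UMIs against 10296 and 11229.5 in monocyte-like cells, and their summed neutrophil markers were at 157052 CPM in replicate 1 and 60747 in replicate 3. Of all genes called, 42.2% were higher under the scaling used, 51.5% with DESeq2's size factors and 56.1% in its Wald test, with 7 higher and 7 lower members in the former and 7 and 9 in the latter, and without the tumour block 4 members were higher and 6 lower.

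Conventional DC-like cells, which present antigen, were close to macrophage-like cells in most of these genes. Of 37 members 3 were higher, against 7.88% of genes, and 2 lower, against 9.02% of genes, and the median was -0.17, against -0.09 over all genes. The share of members called was thus near that of all genes. Ifi205 differed most, by 6.03 ± 0.378 (adjusted p = 2.45e-06 in edgeR's test), from 0.692 and 0.996 CPM in macrophage-like cells, and by 5.85 and 5.78 in the tumours. Phf11b, a chromatin-associated factor of the interferon response, rose by 1.17 and Ifitm3 by 0.90, while Ifi204 was lower at -1.53 and Rtp4 at -1.43. Isg15 (-0.19 ± 0.684), Irf7 (-0.10 ± 0.389) and Bst2 (-0.17 ± 0.351) did not pass. With 2 times the marker minimum in the gates 5 of 36 members were higher and 0 lower, with a median of 0.03. Ifi205 was the single member past the threshold without the tumour block, and its count is uncertain because of the sequence shared with Ifi211.

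Plasmacytoid DC-like cells, the class known for making type I interferon, were lower than conventional DC-like cells in many of its target genes. Of 37 members, 16 were lower, against 15% of 11605 genes, and 1 was higher, against 12.8% of genes. The median was -1.45, against -0.04 over all genes. By role, 4 of 5 OAS genes, 6 of 8 sensors, 5 of 14 effectors and 1 of 4 Ifit genes were lower.

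Bst2, the single member higher, differed by 4.36 ± 0.432 (adjusted p = 7.65e-07 in edgeR's test), with 4.39 and 4.32 in the tumours. Ifitm3 was lower at -4.65 ± 0.357 (adjusted p = 3.8e-08), and Rtp4 at -3.35, Phf11d at -3.15, the helicases Ifih1 at -2.45 and Dhx58 at -2.23, Zbp1 at -1.71, the RNA-activated kinase Eif2ak2 at -1.45, Xaf1 at -1.36 and Phf11b at -0.96 followed. Xaf1 was at 0.02 in replicate 1 and -1.47 in replicate 3, and Ifit3 at -0.13 and -6.13. Oas1a, Oas2 and Ifit3 had 1 UMI each and Ddx58 had 2 in plasmacytoid DC-like cells of both tumours together, and these also passed as lower. The last 3 had 0 UMIs there: Ifi205 was at least 44.2-fold lower, Oasl1 at least 4.21-fold and Oas3 at least 3.45-fold, against 3 UMIs over the class. Irf7 (0.79 ± 0.414), Stat2 (0.84 ± 0.333) and Trim30a (0.65 ± 0.307) did not pass.

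Replicate 1 held 11 plasmacytoid DC-like cells with 135226 UMIs, under the minimum of 20 cells that the other comparisons used, so this comparison was fitted with a minimum of 10. Without the tumour block 1 member was higher and 9 lower.

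T-like cells were lower than macrophage-like cells in OAS genes, sensors and Ifitm3. Of 37 members 17 were lower, against 23.8% of genes, and 3 higher, against 21.1% of genes. The median was -0.95, against -0.06 over all genes. By role, 5 of 6 OAS genes, 5 of 8 sensors and 5 of 14 effectors were lower, and 3 of 14 effectors were higher.

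Ifi204 was lower at -4.12 ± 0.364 (adjusted p = 7.9e-07 in edgeR's test), with -3.996 and -3.93 in the tumours, and Ifitm3 at -2.90 ± 0.2799 (adjusted p = 1.77e-06). Among OAS genes Oas1g was at -3.89, Oas2 at -3.37, Oasl1 at -2.95, Oasl2 at -1.95 and Oas1a at -1.58, while Oas3 (0.03 ± 0.427) did not pass. Each of the 5 that passed was lower in both tumours. Also lower were Phf11d (-2.91), Rsad2 (-2.77, with -4.13 and -1.36), Ifi44, a microtubule-associated protein (-2.58), Irf7 (-1.42), Dhx58 (-1.36), Ifih1 (-1.23), the deconjugating protease Usp18 (-1.15), Bst2 (-0.95) and Eif2ak2 (-0.83). Ifi205 had 0 UMIs in T-like cells, at least 2.80-fold lower. Isg20 was higher by 3.00 ± 0.350 (adjusted p = 1.01e-05 in edgeR's test), Phf11b by 0.78 and Parp14 by 0.57. Isg15 (-0.74 ± 0.678), Ifit1 (-0.18 ± 0.537) and Ifi27l2a (1.18 ± 0.677) did not pass. Summed macrophage markers were at 641 and 892 CPM in T-like cells with all 9 detected. Without the tumour block 1 member was higher and 11 lower, and with 10% of free RNA subtracted 1 and 9.

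In NK-like against T-like cells Ifi27l2a was lower and Ifitm3 higher. Of 37 members 1 was higher in NK-like cells, against 3.54% of genes, and 3 lower, against 5.06% of genes, with a median of -0.34, against -0.03 over all genes. The share of members called was thus near that of all genes. Ifi27l2a was lower at -5.47 ± 0.842 (adjusted p = 0.000897 in edgeR's test), with -8.83 and -4.45 in the tumours, and Ifitm3 was higher by 1.56 ± 0.270 (adjusted p = 0.00212). Phf11b was lower at -1.14 and Irf9 at -0.89. Isg15 (-0.54 ± 0.728), Isg20 (-0.29 ± 0.359) and Bst2 (0.05 ± 0.373) did not pass. Without the tumour block 1 member was higher and 1 lower, with no filter on low counts 2 and 7, with the highest doublet scores removed 1 and 6, and with 10% of free RNA subtracted 1 and 1.

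**Figure D3:**
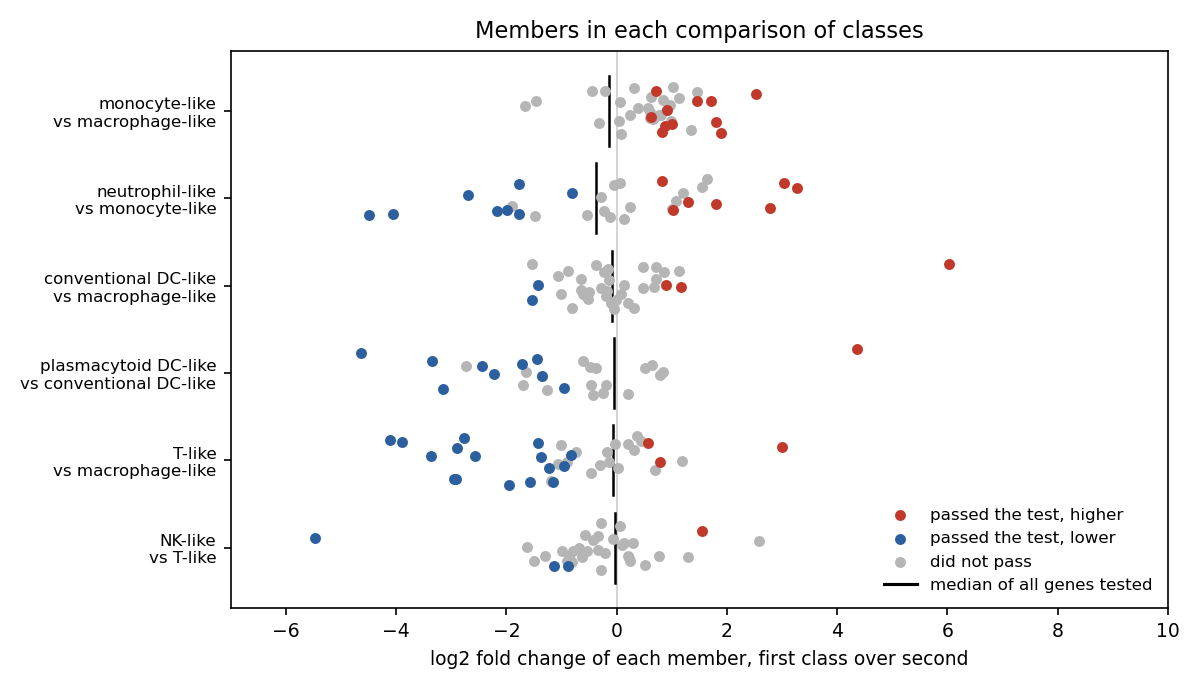
Each point is the log2 fold change of 1 of the 38 genes in 1 of 6 comparisons of classes, red or blue where it passed edgeR's test and grey where it did not, and black bars mark the median of all genes tested. Genes with 3 UMIs or fewer in either class are not drawn, which leaves out 7 of the neutrophil-like, 10 of the plasmacytoid DC-like, 1 of the T-like and 3 of the NK-like comparison; points far from 0 include Ifi205 in conventional DC-like (6.03), Ifi27l2a in NK-like (-5.47) and Ifitm3 in plasmacytoid DC-like cells (-4.65).

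The pathway above these genes was read from a list of 33 genes. Of the type I interferon genes, Ifnb1, which encodes interferon beta, had 21 and 28 UMIs in macrophage-like cells, at 0.346 CPM (0.214 to 0.529) and 0.266 (0.176 to 0.384), and 0 in the other 7 classes. In free RNA barcodes Ifnb1 had 0 UMIs in replicate 1 and 13 in replicate 3, at 2.95 CPM (1.57 to 5.04), above the macrophage-like level of that tumour. In plasmacytoid DC-like cells a count of 0 allows, taken as 3 UMIs, up to 22.2 CPM in replicate 1 and 1.28 in replicate 3. Ifna1, Ifna4, Ifna5, Ifna13 and Ifne had 0 UMIs in all classes, and Ifna2 had 4, all in macrophage-like cells of replicate 1. The receptor subunits were highest in plasmacytoid DC-like cells: Ifnar1 stood at 229 and 305 CPM, against 92.5 and 106 in macrophage-like cells, and Ifnar2 at 385 and 453, against 145 and 160. T-like cells had 47.5 and 54.1 CPM of Ifnar2.

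In the tests, 5 of 24 pathway genes were higher, against 12.8% of all genes, and 6 lower, against 15%, in plasmacytoid DC-like than in conventional DC-like cells, among them Ifnar2 (2.20), the transcription factor Irf8 (2.11), which is also among the cDC1 markers, and Ifnar1 (1.90). The RNA receptor Tlr7 passed too, at 155 and 95.05 CPM against 0 and 1 UMI in conventional DC-like cells. There 0 of 14 genes of the interferon gamma list were higher and 7 lower, with the chemokine Cxcl9 at -6.40. In T-like against macrophage-like cells, where 21.1% of all genes were higher and 23.8% lower, 4 of 23 pathway genes were higher, such as the inhibitor Socs1 (2.46) and Jak1 (1.21), and 10 lower, such as Tlr7 (-4.76), Irf5 (-2.65) and Ifnar2 (-1.70). The interferon gamma list had 5 of 14 higher, with Ifng, a cytokine of T cells, at 7.79, and 5 lower.

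Monocyte-like cells, with 6.89% of all genes higher and 9.94% lower than in macrophage-like cells, had 4 of 23 pathway genes higher, Ikbke (1.29), Irf5 (1.04), the adaptor Myd88 (0.87) and Irf2 (0.76), and 1 lower, the adaptor Mavs (-1.49). Of the interferon gamma list 3 of 14 were higher, led by the kinase Jak2 (2.76), and 0 lower (0 also at an unadjusted p under 0.05). Neutrophil-like cells, with 13.3% of all genes higher and 18.3% lower than in monocyte-like cells, had 6 of 23 pathway genes higher, among them the inhibitor Socs3 (1.51), Jak1 (1.34), Myd88 (1.33) and Ifnar2 (0.74), and 6 lower, among them Irf8 (-2.68) and the adaptor Tmem173 (-2.25). Conventional DC-like cells, with 7.88% and 9.02% of all genes higher and lower than in macrophage-like cells, had 4 of 23 higher, with Tlr3 at 1.84 and Tyk2 at 0.92, and 3 lower, with Ifnar2 at -0.91. NK-like cells, with 3.54% and 5.06% of all genes higher and lower than in T-like cells, had 2 of 23 higher, Irf8 (2.92) and the phosphatase Ptpn6 (1.06). Of the 14 genes of the interferon gamma list, neutrophil-like cells had 0 higher and 3 lower, conventional DC-like cells 2 higher and 3 lower, and NK-like cells 0 higher and 4 lower (0 higher also at an unadjusted p under 0.05 in neutrophil-like and NK-like cells).

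Between the tumours there is 1 sample each, so folds are given with no test. They cover genes with at least 20 UMIs over both tumours and over 3 UMIs in each, which leaves out the most one-sided genes. In macrophage-like cells 4 of 38 members were at least 2-fold higher in replicate 3, against 3.62% of 13803 genes, and 1 was at least 2-fold lower, against 11.3% of genes. Ifi27l2a was higher by 1.43 on the log2 scale (from 243 to 656 CPM), Zbp1 by 1.40 (28.5 to 75.3), Bst2 by 1.28 (90.9 to 221) and Ifi44 by 1.04 (1.55 to 3.20). Rsad2 was the single member past 2-fold lower, at -2.22 (36.1 to 7.77 CPM), and Ifit2 stood at -0.98. The tumours thus ranked differently by Rsad2 than by Ifi27l2a, Zbp1 and Bst2 within the same class. The median was 0.14 over the members and -0.11 over all genes, and scaling by TMM moved both by 0.15.

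In monocyte-like cells 18 of 32 members were at least 2-fold higher in replicate 3, against 3.38% of 8058 genes, and 0 were 2-fold lower, against 5.06% of genes. The median was 1.02, against -0.06 over all genes. Mx1 stood at 2.95 (4 and 125 UMIs), Isg20 at 2.57, Rsad2 at 2.49, Ifit3 at 2.36 and Isg15 at 2.27 (counting interval 1.89 to 2.66). Ifitm3 (0.17) and Ifi27l2a (0.31), the most abundant members of this class, were close in both tumours. Rsad2 was therefore higher in monocyte-like cells of replicate 3 and in macrophage-like cells of replicate 1. The 79 monocyte-like cells of replicate 1 hold 809940 UMIs, which sets the width of these intervals.

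Other classes also held members past 2-fold. At least 2-fold higher in replicate 3 were 6 of 33 members in conventional DC-like cells, against 2.74% of genes, 5 of 31 in T-like cells, against 3.82% of genes, and 6 of 21 in NK-like cells, against 5.37% of genes. In neutrophil-like cells 6 of 14 were higher, against 30.6% of genes, and 1 lower, Rsad2 at -1.65, against 4.56% of genes. The median in neutrophil-like cells was 0.69 over the members and 0.55 over all genes. In plasmacytoid DC-like cells 2 of 12 were higher, Bst2 (1.22) and Ifitm3 (1.16), against 2.62% of genes, and 3 lower, Mx1, Parp14 and Isg15, against 9.47% of genes. Bst2 was past 2-fold in conventional DC-like, T-like and NK-like cells, at 1.44, 2.06 and 1.19, and so were Isg15 at 1.64, 1.07 and 1.75 and Rtp4 at 1.74, 1.00 and 1.16. Ifih1 went the other way in NK-like cells, at -1.26, against 2.97% of genes lower in those cells, while 0 members were 2-fold lower in conventional DC-like and T-like cells, against 4.15% and 6.75% of genes. The T-like class held 283 regulatory and 39 CD8 T-like cells in replicate 1 and 290 and 258 in replicate 3, and the part of that make-up in the T-like folds was not tested. Sex, depth and the tumours' other differences cannot be told apart in these values.

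**Figure D4:**
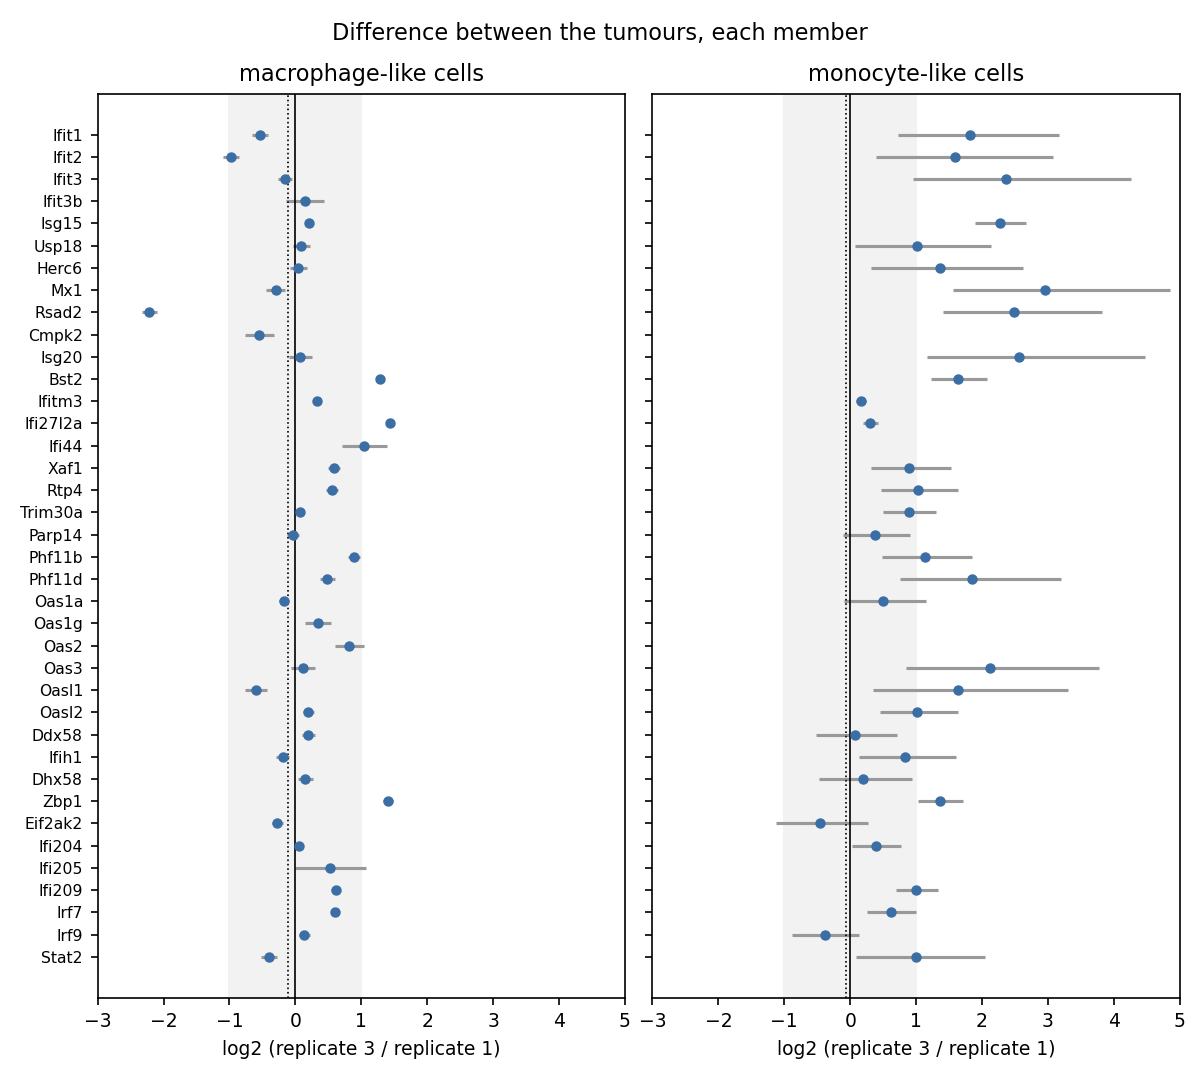
Points give the log2 ratio of replicate 3 to replicate 1 for each of the 38 genes in macrophage-like (left) and monocyte-like cells (right). Lines are 95% counting intervals, grey marks less than 2-fold and a dotted line the median of all genes. Genes under 20 UMIs over both tumours, or with 3 or fewer in either, have no point. Rsad2 lies at -2.22 on the left and 2.49 on the right.

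The spatial codes were compared within macrophage-like cells, as the ratio of code ZC1 to code ZC5, the codes both tumours carry. Which code marks which region is not given in the sources used here. The bins below were cut within each tumour and cover different ratios. The median log2 ratio was -1.20 in the lowest and 0.737 in the highest bin of replicate 1. In replicate 3 it was -2.45 and -0.941, and the median ZC1 count per cell was 20 and 26 UMIs in these bins. A bin thus does not stand for the same ratio in both tumours. Rsad2 stood at 58.2, 23.2, 43.0 and 20.8 CPM in replicate 1 over 4 bins of equal size, from the lowest to the highest ratio, and at 10.2, 4.91, 8.10 and 8.06 in replicate 3. Isg15 was at 95.05, 70.4, 83.4 and 56.5 CPM and at 96.4, 72.6, 100.2 and 81.9. Neither was lower in every next bin. Rtp4 was at 29.2, 25.6, 24.3 and 21.9 CPM and at 40.5, 39.7, 34.1 and 33.7, lower in each next bin in both tumours, as Ifih1 was, from 26.2 to 20.1 and from 21.8 to 18.1. The share of all genes with such an order was not counted. From the lowest to the highest bin the abundant Ifitm3 went from 557 to 630 CPM in replicate 1 and from 744 to 743 in replicate 3. Ifi27l2a went from 226 to 265 and from 713 to 599.

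In edgeR's quasi-likelihood test of the highest against the lowest bin 0 of 38 members passed after Benjamini-Hochberg adjustment, as did 0% of 12576 genes, and the Wald test called 0 members too. At an unadjusted p under 0.05, 15 members were lower in the highest bin, against 1.78% of genes, and 0 higher, against 1.95% of genes. Many members rise together in the same cells, so these 15 are not separate observations. The sum of the members was 1762 CPM in the lowest and 1640 in the highest bin of replicate 1, and 2606 and 2396 in replicate 3. The median was -0.24 over the members, and near 0 over all genes. The pathway list had 0 of 26 past the threshold and the interferon gamma list 0 of 13 (1 higher and 1 lower, and 0 higher and 1 lower, at an unadjusted p under 0.05). Rsad2 was at -1.02 ± 0.217 (adjusted p = 0.867 in edgeR's test; -1.50 in replicate 1 and -0.34 in replicate 3), Isg15 at -0.47 ± 0.110 and Rtp4 at -0.34 ± 0.0695. The differences were larger in replicate 1 for Rsad2 and Isg15. Without the tumour block 2 members were lower at an unadjusted p under 0.05, and with no filter on low counts 2 passed after adjustment.

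Within macrophage-like cells the strong responders were concentrated in few cells. For this, 7 genes (Ifit1, Ifit2, Ifit3, Ifit3b, Rsad2, Cmpk2 and Isg15) were summed per cell after every cell had been thinned to 5000 UMIs, which left 2932 and 3697 cells and left out 103 and 57 shallower ones. In 81.4% of cells of replicate 1 and 77.9% of replicate 3 the sum was 0, while the highest cells held 104 and 54 UMIs. The variance was 25.7 and 15.8 times the mean, where counting alone would give a ratio of 1. The 5% of cells with most, 147 and 185 cells, held 80.8% and 72.3% of the UMIs of these 7 genes. Thinned to 1000 UMIs, as for the other classes, 93.3% and 91.6% of macrophage-like cells were at 0, against 68.5% and 63.2% of neutrophil-like, 91.1% and 77.8% of monocyte-like and 92.5% and 91.0% of T-like cells. The variance was then 5.98 and 3.68 times the mean in macrophage-like and 12.9 and 3.60 times in neutrophil-like cells. It was 1.35 and 3.89 times in monocyte-like and 1.97 and 2.94 times in T-like cells. An uneven spread over cells was thus not particular to macrophage-like cells.

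The 31 other members, which did not choose the cells, were then read in the highest cells, those with at least 3 UMIs of the 7 genes (164 and 205 cells, of which 31 and 57 lay at that minimum and 75 and 123 others lay 1 UMI below). A cut on such a sum is a range and not a cell type. The median fold of the highest cells over the rest was 8.33 in replicate 1 and 6.38 in replicate 3. Of the 31 members, 30 were over 2-fold in each tumour, against 4.78% of 8984 genes in replicate 1 and 4.36% of 9205 genes in replicate 3 with over 3 UMIs in both sets, whose medians were 0.969 and 0.976. None of the 31 was below 1. Mx1 stood at 145 against 3.54 CPM in replicate 1 and 117 against 3.55 in replicate 3. Usp18, which damps the interferon receptor, was at 120 against 5.78 and 136 against 5.56 CPM, and Irf7 at 345 against 29.6 and 480 against 49.5. Fold changes ran from 41.0 and 33.0 for Mx1 through 37.3 and 33.3 for Oasl1, 20.7 and 24.4 for Usp18, 13.4 and 11.6 for Rtp4 and 11.7 and 9.70 for Irf7 to 1.54 and 1.41 for Irf9, the exception under 2-fold. The abundant members Ifitm3 (2.69 and 3.23), Bst2 (3.04 and 3.05) and Ifi27l2a (2.37 and 2.26) were at the lower end in both tumours. Isg20 stood at 46.3 against 4.77 CPM and 62.4 against 4.98. Of these members with a promoter read, 10 without a match to GAAANNGAAA had median folds of 10.9 and 9.71. The 12 with a match had median folds of 5.83 and 5.18.

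Genes outside the list were mixed. The chemokine Cxcl10 was at a fold of 13.1 and 6.12 and the GTPase Iigp1 at 10.9 and 6.19, while the receptor genes Ifnar1 (0.926 and 0.960) and Ifnar2 (1.26 and 1.02) and the macrophage marker C1qa (0.745 and 1.00) were near 1. The division marker Mki67 was at 0.380 (8 UMIs in the highest cells) and 0.755. Ifnb1 was found in 2.44% of the highest cells of replicate 1, with 12 UMIs, and had 0 UMIs in the rest. In replicate 3 it was found in 0.488% of the highest cells, with 2 UMIs, and in 0.0286% of the rest, with 8 UMIs. These Ifnb1 shares rest on very few cells, and in replicate 3 more of the UMIs lay in the rest. Median depth was 18886 UMIs in the highest cells and 19266 in the rest of replicate 1, and 23939 and 24610 in replicate 3, and mitochondrial shares were 4.12% and 4.90%, and 3.68% and 3.79%.

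**Figure D5:**
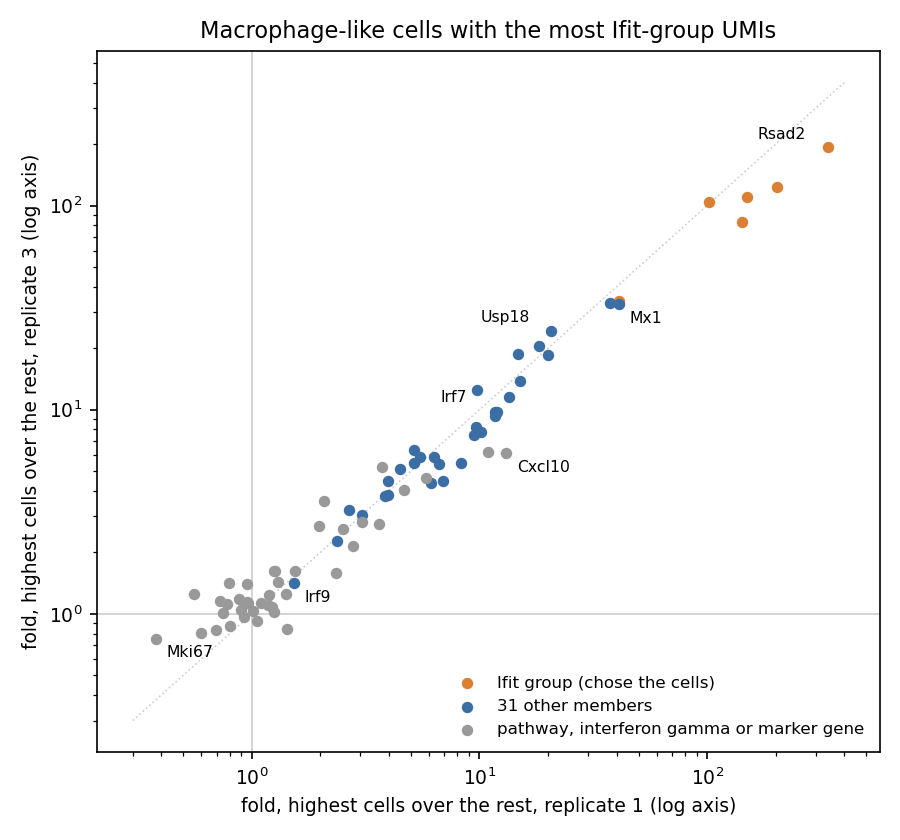
Each point is a gene's fold between the highest macrophage-like cells and the rest, in replicate 1 (x, log axis) and replicate 3 (y, log axis), after thinning to 5000 UMIs; orange genes chose the cells, blue genes are the 31 others and grey genes are not members. The blue points lie along the dotted line of equality from Irf9 (1.54 and 1.41) to Mx1 (41.0 and 33.0).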

How the data were processed

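The deposited matrices hold whole-number counts of UMIs per feature and barcode that the authors had not normalised, made with Cell Ranger 4.0 on mm10 per the submitters' processing notes; the sources used here do not give the annotation release or how multi-mapping reads were handled. Replicate 1 held 89040909 gene UMIs and replicate 3 held 170328781. Barcodes with at least 1000 UMIs, 500 genes and at most 10% mitochondrial UMIs were kept, placed in classes by marker gates that were set after depth had been seen, and left out of every class where several gates (390 and 264 cells) or none (235 and 1034 cells) applied. Scrublet called 0 doublets in both, so removing the highest scores (186 and 363 cells) was an alternative.

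Members and gene lists were chosen with earlier results of these data known. Counts were summed per tumour and class and tested with edgeR 4.0.16 (limma 3.58.1, R 4.3.3): quasi-likelihood, TMM, filterByExpr, the tumour as a block, 1 fit over classes of at least 20 cells per tumour, Benjamini-Hochberg over all genes at 0.05. The plasmacytoid DC comparison departs from this with a minimum of 10 cells, chosen after seeing the data, as was thinning to 5000 UMIs. The block rests on both classes coming from the same tumours. Over 21 class pairs the tumour differences correlated across genes at 0.0617 to 0.453, with a median of 0.138. Other tools were DESeq2 1.42.0, Python 3.11.15, numpy 2.4.6, scipy 1.17.1, pandas 2.3.3, scanpy 1.11.5 and matplotlib 3.10.9. Intervals are exact 95% Poisson intervals. Scripts were tested on simulated data. Named in each comparison were the members past the threshold, the 12 with the largest change first, and 2 to 4 that did not pass; pathway genes were named when past the threshold or a ligand or receptor, and one pathway gene is not reported here. Alternatives were DESeq2's size factors and Wald test, no filter on low counts, no block, other cell filters and gates, doublet removal, free RNA subtraction and each tumour alone.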

Additional observations from a re-analysis of the deposited data

How the results depend on the processing

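Counts of members past the threshold moved by more than 1.5 times in these settings. Without the tumour block (no replicate block) they were 3 for monocyte-like (11 as reported), 10 for neutrophil-like (17), 1 for conventional DC-like (5), 12 for T-like (20), 2 for NK-like (4) and 10 for plasmacytoid DC-like cells (17). With 10% of free RNA subtracted they were 4 for monocyte-like, 10 for T-like and 2 for NK-like cells, and with 2 times the marker minimum 22 for monocyte-like cells. With no filter on low counts they were 8 for conventional DC-like cells, 9 for NK-like cells and 2 for the code ratio, and with the highest doublet scores removed 7 for NK-like cells; the cause was not tested. For the highest macrophage-like cells the median fold was 6.57 and 4.604 at 1000 UMIs, against 8.33 and 6.38 at 5000. Of 74 called values, 686 values under alternatives kept their direction, 583 of them past the threshold and 103 not. Each tumour alone reversed 2 of 148 values: Isg20 in monocyte-like cells (-0.66 without replicate 3, 1.95 without replicate 1) and Xaf1 in plasmacytoid DC-like cells (0.022 and -1.47). Past the threshold in every alternative were 2 members for monocyte-like (Ifitm3, Ifi209), 8 for neutrophil-like, 1 for conventional DC-like (Ifi205), 10 for T-like, 2 for NK-like (Ifi27l2a, Ifitm3) and 9 for plasmacytoid DC-like cells. Not run were neutrophil-like cells under the stricter UMI filter and plasmacytoid DC-like cells at 5% mitochondrial UMIs, which left too few cells. With 38 neutrophil-like cells in replicate 3 and 11 plasmacytoid DC-like cells in replicate 1, single genes there rest on few UMIs.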

Other observations

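Cells that no comparison used also carried these transcripts. The summed level of the 38 genes was 1643 CPM in cells that no gate took and 2135 CPM in cells that several gates took in replicate 1, and 1827 and 3550 CPM in replicate 3. In activated DC-like cells (15 and 14 cells) it was 1263 and 1735 CPM, with Ifitm3 and Bst2 as the leading genes, and in B-like cells (14 and 9 cells) 473 and 1145 CPM. Among T-like cells, regulatory T-like cells stood at 1925 and 2977 CPM and CD8 T-like cells at 688 and 1826 CPM. Isg15 in CD8 T-like cells was at 16.4 CPM (5 UMIs) in replicate 1 and 114 CPM (305 UMIs) in replicate 3, and Bst2 at 29.5 and 203 CPM. Ifnk, an interferon best known from skin, was detected at low levels in most classes, with 0.462 and 1.29 CPM in macrophage-like cells and 6.42 CPM (15 UMIs) in plasmacytoid DC-like cells of replicate 3. Its level in free RNA barcodes was 0 UMIs in replicate 1 and 1.59 CPM (0.638 to 3.27) in replicate 3, an interval that holds the macrophage-like level of that tumour.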
